A study of Mus musculus with 11 samples.

Results

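Cultured mouse oligodendrocytes were compared with the progenitor cells they come from, 4 arrays against 4, which are 8 of the 11 Affymetrix Mouse Genome 430 2.0 arrays of a study of the gene Myrf. The members were chosen by their sample titles. The 4 control oligodendrocyte arrays were of cells from control littermates, MRF wt/fl and Olig2 wt/cre, which carry 1 floxed copy of Myrf (labelled MRF) and 1 Olig2 allele with a Cre recombinase. After a phase of growth in PDGF-AA they were switched to medium with T3, a thyroid hormone (40 ng/ml), and harvested 4 days later. The 4 progenitor arrays were of cells kept for 6 days with PDGF-AA at 10 ng/ml, and the labels give them no genotype beyond the word control. Cells of the first group in which Cre has acted therefore have 1 working Myrf copy, and whether the progenitors share these alleles is not stated. The 3 arrays of Myrf knockout oligodendrocytes were not part of the comparison. The source was brain tissue of mice at postnatal day 7. Microglia were first removed on BSL1, a lectin, the cells were then panned on antibody to PDGFRα, and the culture medium held no serum but 2% B-27, a supplement. Separate cultures or animals are not stated for the replicates, and the p-values refer to the variation among these 8 samples alone, part of which may be technical. PDGF withdrawal, T3, days in culture and genotype differ together between the groups and cannot be told apart.

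Oligodendrocytes make the myelin sheath that insulates axons in the brain and spinal cord. Their progenitors divide in response to PDGF, which acts through the receptor PDGFRα. When the growth factor is withdrawn and thyroid hormone is given, the cells leave the cell cycle, pass through a short-lived newly formed stage and then make large amounts of myelin protein and lipid. Progenitors selected in this way can also become astrocytes in culture, depending on the medium.

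Signals are those of the MAS 5.0 algorithm, a measure of brightness per probe set (a group of short probes for 1 transcript region) on a linear scale. Each array had a trimmed mean of 500, and 15100 to 16814 of its 45101 probe sets reached a signal of 200. The 16842 probe sets that did so on at least 4 of the 8 arrays were tested, and they named 9360 genes, each given by its brightest probe set. A difference is the mean log2 signal of the 4 control oligodendrocyte arrays minus that of the 4 progenitor arrays, given ± its standard error, and a gene "rose" or "fell" where its adjusted p in limma was under 0.05. Signals under 100 are weak, so a gene with all 4 signals of its lower group under 100 is given as changed at least N-fold, against a level of 100. Where only some of those signals were under 100, the fitted fold is given and rests in part on weak signals.

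Progenitor replicate 2 stood apart. Over the tested probe sets the other 3 progenitor arrays correlated with each other at r = 0.886 to 0.967 and with replicate 2 at 0.787 to 0.895, against 0.933 to 0.972 among the oligodendrocyte arrays. Each array was placed between the mean progenitor profile (0) and the mean oligodendrocyte profile (100), with the array itself left out of its group's mean. The oligodendrocyte arrays lay at 103.9, 103.3, 89.9 and 94.1 and the progenitor arrays at -14.9, 40.6, 16.8 and -21.8. Progenitor replicates 1 and 4 had a low ratio of 5′ to 3′ Gapdh signal, a sign of shortened RNA or labelled product, at 0.332 and 0.12, against 1.15 to 1.41 on the other 6 arrays. The same ratio for dap, a bacterial control sequence, was 0.0431, 0.375, 0.223 and 0.0251 on progenitor replicates 1 to 4. On the oligodendrocyte arrays it was 0.401 to 0.432. For thr, another such control, the values were 0.0723, 0.36, 0.195 and 0.103, against 0.331 to 0.495. Progenitor replicate 3 was therefore also below the oligodendrocyte arrays on both controls. The part of these array differences in the results was not tested, and values without replicate 2, or without replicates 1 and 4, are given beside the results they change, together with any single array whose omission ended a call.

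Of the 9360 genes, 1851 rose (19.8%) and 2454 fell (26.2%). At least 2-fold rises numbered 1242 (13.3%) and such falls 1305 (13.9%). Fitted changes of at least 8-fold were more often rises, with 278 rises (2.97%) and 102 falls (1.09%). These fold counts take the fitted difference even where the lower group was weak. They include S1pr5, Klk6 and Gria1, for which the bound given further on is under 8-fold. The part of such weak signals in the excess of large rises was not tested. For 1785 genes (19.1%) every oligodendrocyte array was above every progenitor array, and for 2316 (24.7%) every one was below, so that 43.8% of genes had groups that did not overlap. The median difference over all genes was -0.11, and -0.15 and -0.13 after median centring and quantile normalization. A gene list is described by its counts and median beside these values for all genes. Counts are of the members that passed the signal filter, and a member that passed through 1 group alone had to differ. Without progenitor replicate 2 there were 9309 probe sets past the threshold, against 7752 (46.0%) with it.

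**Figure D1:**
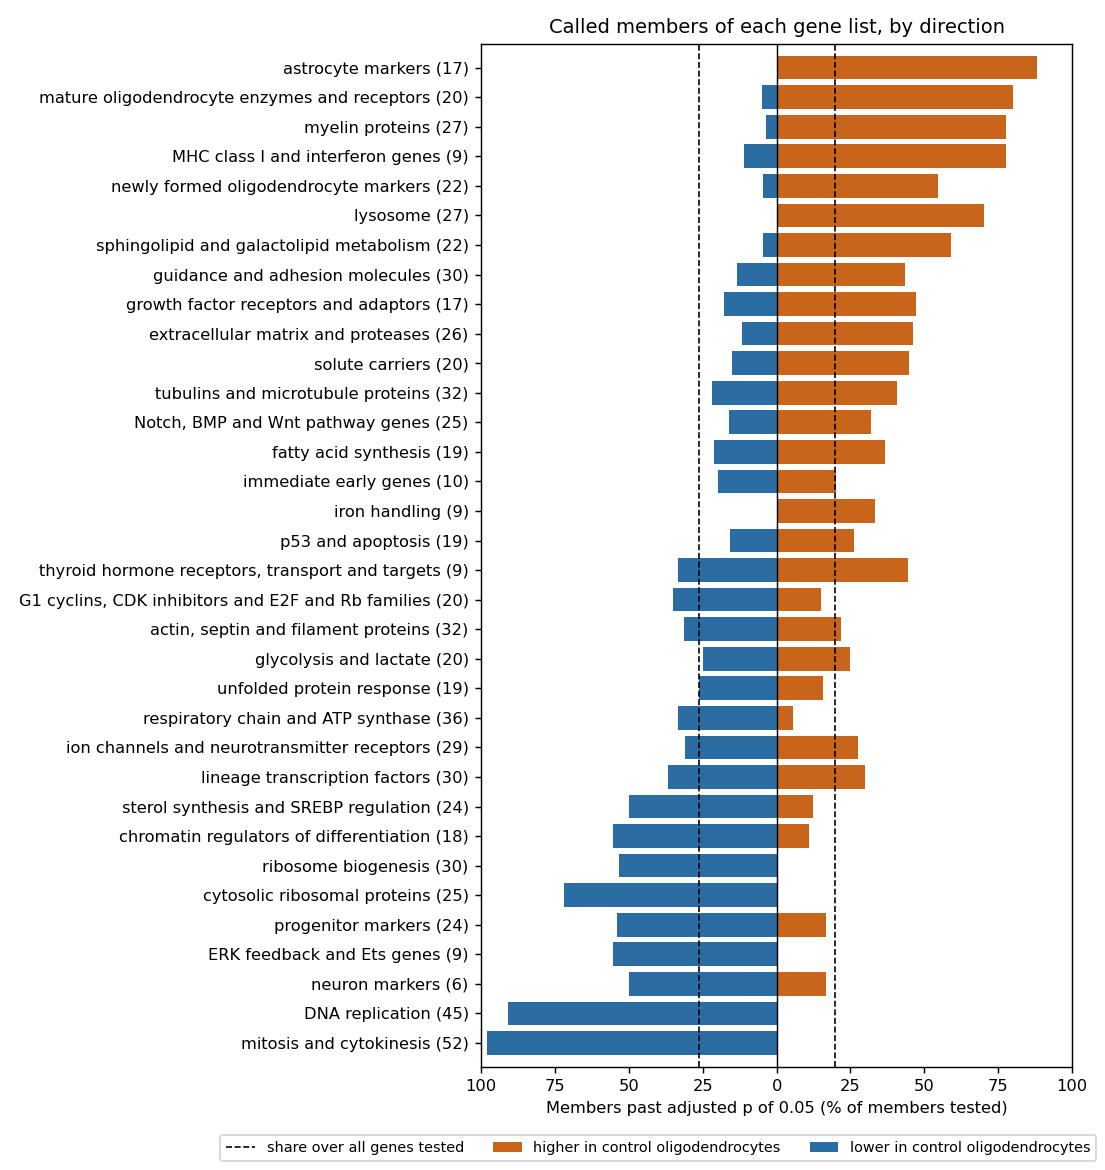
Share of the tested members of each gene list (number tested in brackets) that rose (right) or fell (left) in control oligodendrocytes against progenitors at an adjusted p under 0.05. Dashed lines mark the shares over all genes tested, 19.8% for rises and 26.2% for falls. Mitosis and DNA replication genes lie far to the left, and astrocyte, mature oligodendrocyte and myelin genes far to the right.

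Of the 27 tested genes of myelin proteins (of 32 listed) 21 rose and 1 fell, with a median difference of 3.07. Mbp, the protein that holds the inner membrane faces of myelin together, gave signals of 25195, 22331, 21869 and 20885 on oligodendrocyte replicates 1 to 4 and of 1237, 17498, 9492 and 2329.7 on progenitor replicates 1 to 4. All 4 oligodendrocyte arrays were higher, but progenitor replicate 2 came close to them and replicates 1 and 4 were lowest. The difference was 2.27 ± 0.72 (adjusted p = 0.0287). Without progenitor replicate 2 it was 2.90, without replicates 1 and 4 it was 0.80, and without replicate 1 it was 1.63 with an adjusted p of 0.0586. The call was lost without any 1 of the 4 oligodendrocyte arrays or progenitor replicate 1 or 4 (adjusted p = 0.0575 to 0.0735). Mag, which binds the myelin sheath to the axon, was at 14251, 13318, 13226 and 11997 against 107, 2957, 622 and 145. Its progenitor signals ranged widely with replicate 2 on top, the groups did not overlap, and the difference was 5.00 ± 0.89 (adjusted p = 0.00255). It was 5.95 without replicate 2, 4.36 without replicate 1 and 3.28 without replicates 1 and 4.

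Mobp, a protein of compact myelin, reached 20324, 17803, 22066 and 12531 on the oligodendrocyte arrays against 18.9, 69.9, 751 and 57.8 on the progenitor arrays. Only progenitor replicate 3 was above 100, and the fitted difference of 7.67 ± 0.92 became 8.71 without it, 6.94 without replicate 1 and 6.28 without replicates 1 and 4. Mog, a protein of the outermost myelin surface, was at 1743, 1256, 5318 and 403, highest on replicate 3 and lowest on replicate 4, against signals under 100 on every progenitor array, which is at least 14.7-fold. Mal, a proteolipid of myelin membranes, was also brightest on replicate 3 with 4619.6, 5222, 10038 and 2179 (at least 47.9-fold), and so was Ermn, a cytoskeletal protein of late oligodendrocytes, with 2115, 1339.9, 2878 and 695 (at least 15.4-fold). Cryab, a small heat shock protein of oligodendrocytes and astrocytes, was at 1160.1, 3089.9, 3128 and 3372 (at least 24.8-fold), with replicate 1 lowest. Mog, Mal and Ermn thus varied among the oligodendrocyte arrays with replicate 3 highest and replicate 4 lowest, while Mbp and Mag were nearly level across them.

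Other members of the list were already bright in progenitors or moved the other way. Cnp, a phosphodiesterase of non-compact myelin, was at 26673, 22736, 22019 and 21096 against 10678, 27153, 21714 and 15839.9. The groups overlapped because progenitor replicate 2 was the brightest of the 8 arrays, and the difference of 0.37 ± 0.26 did not pass the test (adjusted p = 0.254); without replicate 2 the difference was 0.58 (adjusted p = 0.0502). Septin8, a filament-forming septin of myelin, fell by 1.47 on the log2 scale on its brightest probe set, with 1253, 1568, 1172 and 1918 against 2970.3, 5911, 4931 and 3036. Another Septin8 probe set passed as a rise with overlapping groups (0.88 ± 0.32, adjusted p = 0.0464). Its relative Septin4 was at 8479, 7364, 12842 and 4541 against 78.6, 201, 283 and 71.4, a difference of 5.86 ± 0.49 (5.03 without progenitor replicates 1 and 4).

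**Figure D2:**
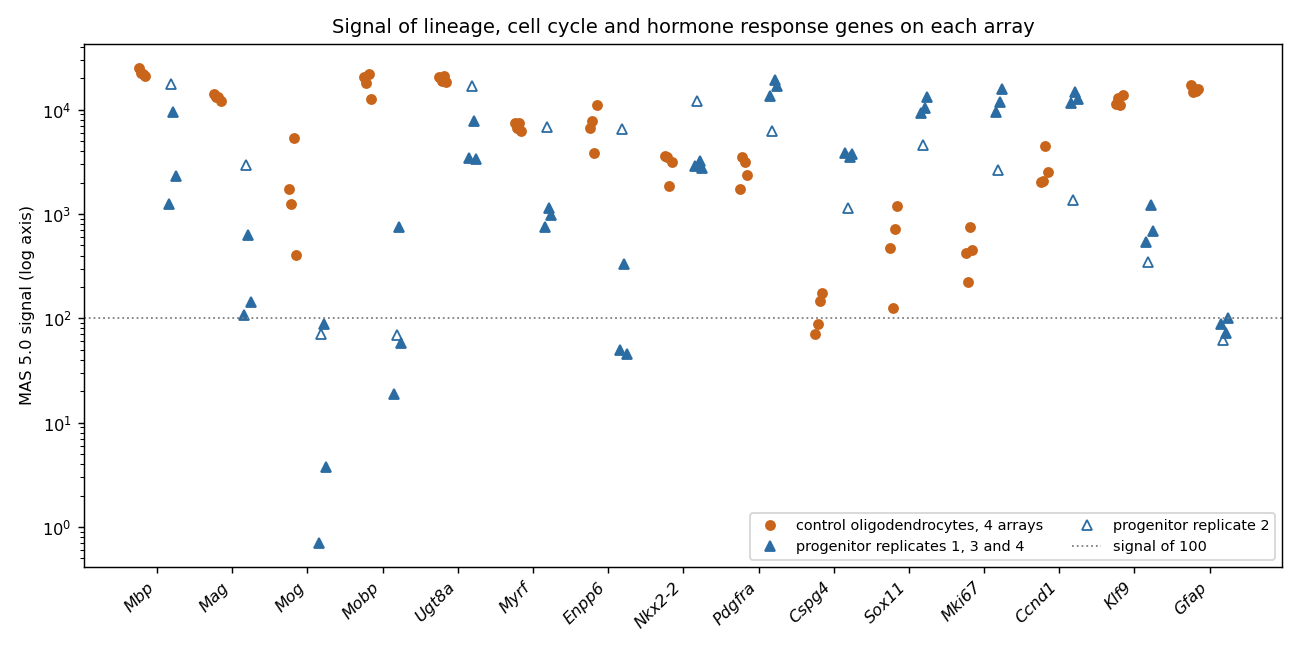
MAS 5.0 signal (log axis) of 15 genes on each of the 4 control oligodendrocyte arrays (circles) and 4 progenitor arrays (triangles), with progenitor replicate 2 as an open triangle. The dotted line is a signal of 100. The open triangle lies near or among the circles for Mbp, Ugt8a, Myrf and Enpp6, above all other arrays for Nkx2-2, and below the other triangles for Pdgfra, Cspg4, Sox11, Mki67 and Ccnd1.

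Enzymes and receptors of mature oligodendrocytes rose with the myelin proteins, in 16 of 20 tested members, with 1 fall and a median of 3.59 (2.54 with weak genes at their bound). S1pr5, a receptor for the lipid sphingosine 1-phosphate, was at 322, 329, 2468 and 209 against 2.1, 1.7, 35.4 and 2.7, at least 4.84-fold, with most of its signal on replicate 3. Car2, a carbonic anhydrase used as an oligodendrocyte marker, was at 3898, 2859.5, 11215 and 1758 against 108, 18.1, 132 and 109 and had the same bright replicate. The protease Klk6 rose at least 6.99-fold, and the lysophosphatidic acid receptor Lpar1 and the protease Adamts4 differed by 4.95 ± 0.62 and 4.36 ± 0.55. The Lpar1 value was 3.76 without replicates 1 and 4. The Adamts4 value was 4.96 without progenitor replicate 2, whose signal of 1748 was the highest of its group, and 3.46 without replicates 1 and 4. Qdpr, which recycles tetrahydrobiopterin, and Gstp1, a detoxifying transferase, were bright in both groups with overlapping signals, and their differences of 0.28 ± 0.22 and 0.23 ± 0.17 did not pass. The 1 fall was of Anln, whose protein, anillin, acts in cytokinesis and is also placed in mature myelin. It gave 649, 491, 1175 and 722 against 2481, 749, 2955 and 2886, with progenitor replicate 2 inside the oligodendrocyte range, and its adjusted p of 0.0271 rose to 0.175 without replicates 1 and 4. The call was also lost without oligodendrocyte replicate 1, 2 or 4 or progenitor replicate 1, 3 or 4 (adjusted p = 0.0584 to 0.0752).

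Markers of newly formed oligodendrocytes rose in 12 of 22 tested members and fell in 1, with a median of 1.17. Enpp6, a choline phosphodiesterase switched on as the cells leave the progenitor state, was at 6626, 7862, 3856 and 10978 on the oligodendrocyte arrays and 49.3, 6560.5, 334 and 45.5 on the progenitor arrays. Replicate 2 lay within the oligodendrocyte range, whereas replicates 1 and 4 were under 50. The difference of 4.69 ± 1.38 (adjusted p = 0.0216) was 6.24 without replicate 2, and did not pass without replicates 1 and 4 (2.21, adjusted p = 0.134). Nor did it pass without progenitor replicate 1 (3.89) or 4 (3.85) or without oligodendrocyte replicate 2 or 4 (adjusted p = 0.0503 to 0.0622). Bcas1, a protein of early myelinating cells, was bright everywhere, at 15837 to 16344 against 14751 to 20350.0, and did not pass (-0.18 ± 0.13). Fyn, a kinase that links contact with the axon to Mbp translation, did not pass either (-0.43 ± 0.31), and its brightest array was progenitor replicate 2 with 17772. Lims2, an adaptor of integrin adhesions, fell by 1.74, with 547, 582, 442 and 729 against 1039, 6075, 1319.8 and 1539, and again replicate 2 was far above the other progenitor arrays. By contrast Prom1, a membrane protein of protrusions, rose, with 1726, 1951, 2353 and 2329 against 294, 35.5, 252 and 298, and replicate 2 was lowest. Its difference was 3.63, or 2.89 without replicate 2 and 4.45 without replicates 1 and 4. Chn2, a Rac-inactivating protein, and Rras2, a small GTPase, differed by 2.58 ± 0.54 and 2.36 ± 0.19. The Chn2 value was 3.18 without replicate 2 and 1.63 without replicates 1 and 4. Without replicate 2, 16 of the 22 members rose and the median was 1.63.

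Progenitor markers gave the opposite picture: 13 of 24 tested members fell and 4 rose, with a median of -0.87. Pdgfra, the receptor that binds the PDGF in the progenitor medium and that was used to select the cells, was at 1742, 3532, 3118 and 2339 against 13499.7, 6309, 19102 and 16957. Progenitor replicate 2 was lowest of its group and still above every oligodendrocyte array, and the fall was 4.98-fold (log2 -2.32 ± 0.36, adjusted p = 0.00138). All 3 tested Pdgfra probe sets fell, with differences of -1.62, -2.32 and -3.85. Cspg4, the NG2 proteoglycan that marks these progenitors, had the largest fall among all genes that passed without overlap, 24.5-fold, from 3850.0, 1131, 3506 and 3720.4 to 71.3, 87.3, 146 and 174. Pcdh15, a cadherin, and Megf11, a cell surface receptor, fell 11.5-fold and 7.2-fold, and the log2 difference of Pcdh15 went from -3.52 to -2.91 without replicates 1 and 4. Dll3, a Notch ligand of the same cells, fell 11-fold, with 211, 242, 132 and 281 against 2558, 5053, 1431 and 1499.

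Some genes listed as progenitor markers behaved unlike that name. Matn4, a matrix protein, rose from 65.6, 135, 67.7 and 14.6 to 4541, 3868, 1191 and 3902, with oligodendrocyte replicate 3 lowest of its group. C1ql1, a secreted C1q-like protein, rose 3.98-fold and was brightest on oligodendrocyte replicate 4. Ednrb, an endothelin receptor also made by astrocytes, rose 2.75-fold, with 8639.9, 8200.3, 7111 and 6440.4 against 2456, 2584, 3286 and 2729.6. Ntn1, the guidance cue netrin-1, passed with overlapping groups (1.44 ± 0.43, adjusted p = 0.0228), but not without replicates 1 and 4 (0.77, adjusted p = 0.111) or without oligodendrocyte replicate 1, 2 or 4 or progenitor replicate 1 or 4 (adjusted p = 0.0505 to 0.063). Fabp7, a fatty acid binding protein of progenitors and astrocytes, was at 16346 to 19092 against 15267 to 25528 and did not pass (-0.14 ± 0.16, and 0.33 after quantile normalization).

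Cell division genes fell together. Of 52 tested genes of mitosis and cytokinesis 51 fell, with a median of -3.06, and of 45 DNA replication genes 41 fell, with a median of -2.15. No member of either list rose at any of the 21 alternative settings, which are the 20 run for probe sets and the median over the probe sets of a gene. Mki67, the protein coating of mitotic chromosomes, was at 425, 222, 748 and 451 in oligodendrocytes against 9456, 2615, 11836 and 15832 in progenitors. Replicate 2 had the lowest progenitor signal and replicate 3 the highest oligodendrocyte signal, without overlap, and the fall was 19.5-fold (log2 -4.29 ± 0.56, adjusted p = 0.00063). The kinesins Cenpe, which moves chromosomes, Kif2c, which depolymerises microtubules, and Kif23, which works in the midbody, fell 17.9-fold, 16.9-fold and 14.6-fold. Without replicate 2 their log2 differences were -4.76, -4.73 and -4.48 and without replicates 1 and 4 -3.56, -3.04 and -3.23, when Kif23 did not pass (adjusted p = 0.0522). Without oligodendrocyte replicate 2 the difference of Kif23 was -3.09. Bub1, a kinase of the spindle checkpoint, was at 150.3, 92.5, 465 and 172 against 3657, 874, 3955 and 3426. On the mean log2 scale the mitosis list stood at 8.08, 7.54, 9.12 and 8.38 on the oligodendrocyte arrays and 11.81, 9.83, 11.84 and 11.87 on the progenitor arrays. Oligodendrocyte replicate 3 was thus nearest to the progenitors, and progenitor replicate 2 nearest to the oligodendrocytes. Without replicate 2 the median of the list was -3.58 and without replicates 1 and 4 it was -2.60, when 47 members fell.

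The replication genes that fell most were Pold1, the catalytic subunit of DNA polymerase delta (-3.58 ± 0.63), Mcm6 and Mcm5 of the replicative helicase (-3.47 ± 0.51 and -3.27 ± 0.73), the licensing factor Cdt1 (-3.44 ± 0.80) and Uhrf1, which passes DNA methylation to the new strand (-3.40 ± 0.64). Mcm5 was at 512, 415, 1879 and 693 against 10670.4, 1485, 10652 and 14226, so that progenitor replicate 2 fell within the oligodendrocyte range set by replicate 3. Without replicate 2 the differences of Mcm5, Cdt1 and Pold1 were -4.02, -4.29 and -4.19. Without replicates 1 and 4, where replicate 2 is 1 of only 2 progenitor arrays left, 20 of the 45 replication genes fell, and Mcm5 and Cdt1 no longer passed (adjusted p = 0.0584 and 0.0675). Their differences were then -2.46 and -2.42, and that of Pold1 was -2.73. Rpa1, which coats single-stranded DNA, did not pass in all 8 arrays (-0.96 ± 0.48, adjusted p = 0.127), and replicate 2 had its lowest signal.

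The upstream promoter sequences of the mitosis genes that fell were searched because these genes moved together. Genes of the late cell cycle are known to be repressed in resting cells through a short element called CHR, often accompanied by CCAAT boxes. In RefSeq promoters of the GRCm38.p6 mouse build, 41 of the 51 genes that fell had an entry, and the 250 bases before the first start listed for each gene were searched on both strands. The CHR letters TTTGAA or TTCGAA were found in 17 of them (41.5%), against 11.3% of 7704 tested genes with an entry and 17.4% of all 27025 genes. The box CCAAT was found in 32 (78%), against 37.3% of tested genes and 62.9% of the DNA replication genes that fell. Both occurred within the last 60 bases before the start in 8 of the 41 (19.5%), against 0.532% of tested genes and 0 of 35 DNA replication genes that fell. The 8 were picked for this arrangement after their values were known. The 6 with the largest falls are shown, as the 100 bases before the start, 5′ to 3′ on the strand of the gene, with the CHR letters and CCAAT in capitals in either orientation (ATTGG and TTCAAA are CCAAT and TTTGAA read on the other strand).
Cdc20 at chr4:118437344-118437443, strand minus: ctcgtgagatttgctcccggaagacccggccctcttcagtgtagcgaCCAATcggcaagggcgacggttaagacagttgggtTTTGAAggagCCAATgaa
Top2a at chr11:99024190-99024289, strand minus: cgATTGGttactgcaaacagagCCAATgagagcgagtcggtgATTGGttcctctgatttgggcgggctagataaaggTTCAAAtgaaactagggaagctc
Espl1 at chr15:102296193-102296292, strand plus: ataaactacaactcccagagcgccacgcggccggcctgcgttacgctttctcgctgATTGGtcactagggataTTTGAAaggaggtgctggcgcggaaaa
Kif11 at chr19:37376282-37376381, strand plus: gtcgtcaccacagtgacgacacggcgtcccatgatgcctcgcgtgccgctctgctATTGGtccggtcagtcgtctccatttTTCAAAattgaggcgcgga
Ube2c at chr2:164769829-164769928, strand plus: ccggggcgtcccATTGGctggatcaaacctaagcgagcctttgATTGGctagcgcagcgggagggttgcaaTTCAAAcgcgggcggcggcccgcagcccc
Cdk1 at chr10:69352913-69353012, strand minus: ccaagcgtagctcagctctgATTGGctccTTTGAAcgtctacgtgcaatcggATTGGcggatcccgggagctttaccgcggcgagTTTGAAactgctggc
These genes encode the anaphase activator Cdc20, topoisomerase Top2a, the cohesin-cutting protease Espl1 (separase), the spindle kinesin Kif11, the ubiquitin-conjugating enzyme Ube2c and the mitotic kinase Cdk1. Their differences were -3.57 ± 0.53, -3.52 ± 0.57, -3.48 ± 0.55, -3.09 ± 0.52, -3.03 ± 0.49 and -3.02 ± 0.57. The other two, the kinesin Kif22 and the checkpoint protein Bub3, differed by -2.58 ± 0.50 and -0.94 ± 0.28. Espl1 stood at -2.70 and Kif22 at -1.69 without replicates 1 and 4, and without replicate 2 Espl1 stood at -4.07. Bub3 lost its call without replicates 1 and 4 (adjusted p = 0.118) and without oligodendrocyte replicate 1 or 4 or progenitor replicate 1 (adjusted p = 0.0542 to 0.0578). A match is a description of these letters and not a measured binding site.

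Regulators of the step from growth into replication did not move as one. Of 20 tested cyclins, inhibitors and E2F and Rb family genes, 7 fell and 3 rose, with a median of -0.09. Of all genes 26.2% fell and 19.8% rose. The E2F repressors E2f8 and E2f7 fell 12.4-fold and 9.83-fold, and the pocket protein Rbl1 fell 7.08-fold while its relative Rbl2, which acts in resting cells, rose 1.99-fold. Without replicate 2 the log2 differences of E2f8, E2f7 and Rbl1 were -4.43, -4.16 and -3.44. Without replicates 1 and 4 they were -2.46, -2.22 and -1.97, and E2f7 and Cdkn2c did not pass (adjusted p = 0.0687 and 0.0545). The CDK inhibitor Cdkn2c fell by 1.63 on the log2 scale, whereas the inhibitor Cdkn2b rose by 1.25 ± 0.29. Ccnd1, the cyclin that growth factors induce, was at 2035, 2069.7, 4496 and 2538 against 11451, 1353, 14605 and 12602. Progenitor replicate 2 was below every oligodendrocyte array, so the groups overlapped and the difference of -1.47 ± 0.70 did not pass (adjusted p = 0.11). Without replicate 2 it was -2.28 (adjusted p = 0.000203). Cdkn1a, the inhibitor p21, had the same outlying array, with 3591, 3778, 5753 and 2782 against 8267, 474, 4553 and 9889. Its difference of 0.07 ± 0.84 changed sign without replicate 2, to -0.91 (adjusted p = 0.0337). Ccnd2, another D cyclin, passed with overlapping groups (2.32 ± 0.76), with replicate 2 again lowest at 92.6. It was 1.50 without replicate 2, and the call was lost without replicates 1 and 4 and without oligodendrocyte replicate 1, 2 or 4 or progenitor replicate 4 (adjusted p = 0.0539 to 0.0849).

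**Figure D3:**
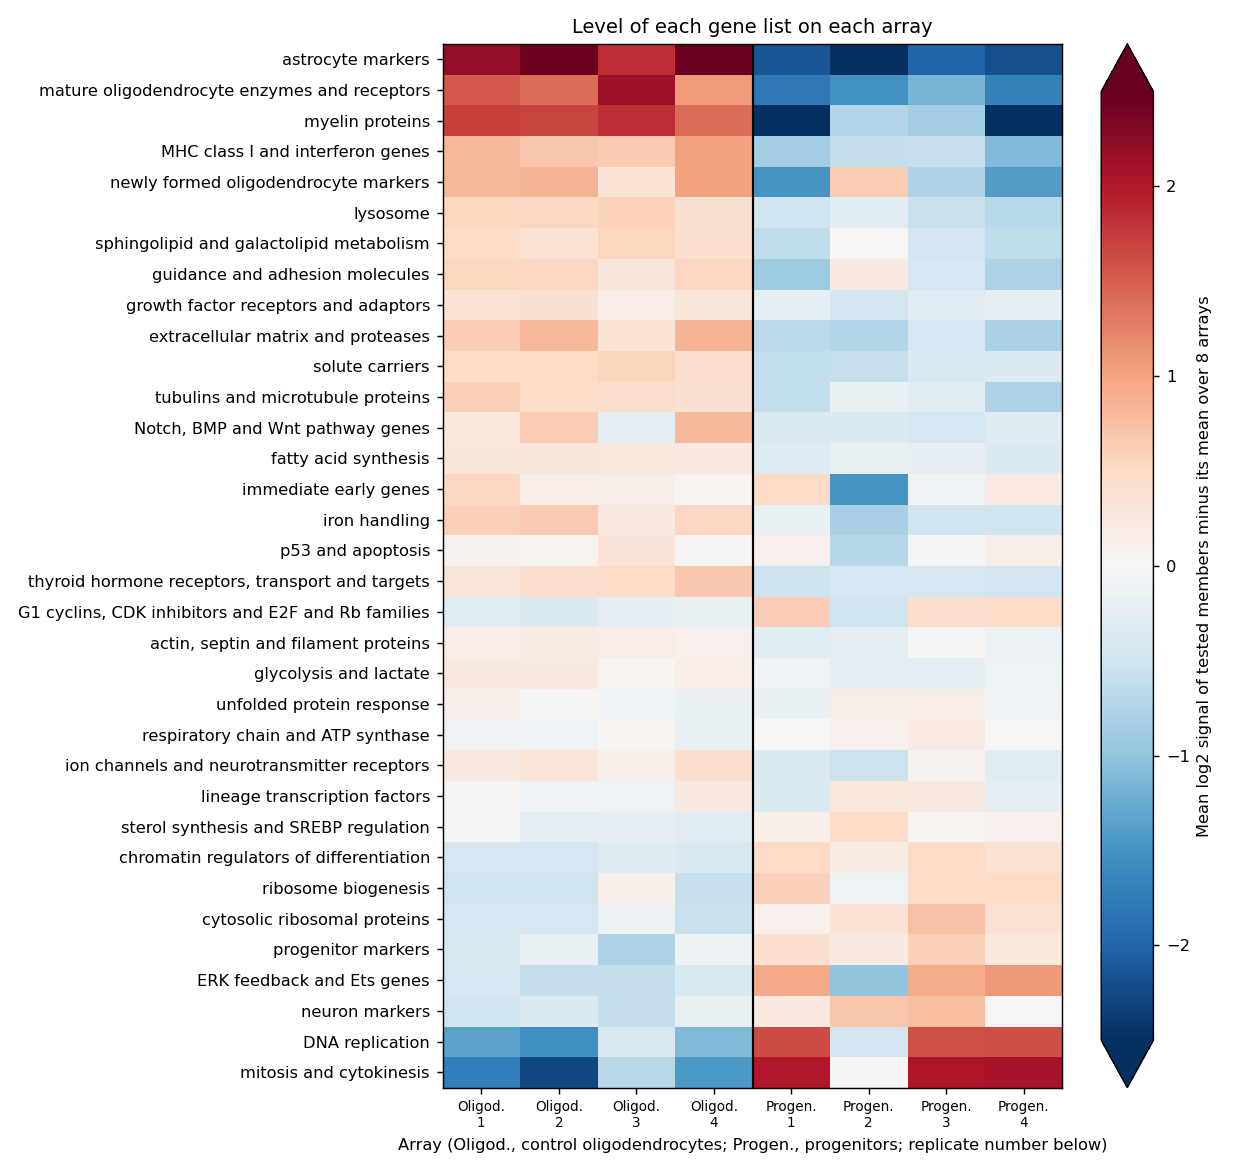
Mean log2 signal of the tested members of each gene list on each of the 8 arrays, minus the mean over the arrays (red above, blue below; the vertical line divides the groups). Progenitor replicate 2 is nearer to the oligodendrocyte arrays than its group for the cell division, ERK feedback and newly formed oligodendrocyte lists, and is lowest of all arrays for the immediate early genes.

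Among 30 tested transcription factors of the lineage 9 rose and 11 fell, beside 19.8% and 26.2% of all genes, with a median of -0.40. Sox11, a factor of immature neural cells, fell 18.4-fold, from 9362, 4556, 10393 and 13135 to 476, 124, 712 and 1194. Its fitted difference of -4.20 ± 0.63 was -3.56 without oligodendrocyte replicate 2, the lowest array. Sall3, Nfib and Sox6, factors of progenitors or early glia, fell, with differences of -3.33 ± 0.55, -2.08 ± 0.46 and -1.87 ± 0.38. Nkx6-2, a homeobox gene of myelinating cells, rose 16.1-fold, with 802, 953, 862 and 717 against 27.1, 175, 69.3 and 21.5. St18, a zinc finger factor related to Myt1, rose from 20.3, 491, 40.6 and 43.4 to 669.8, 741, 872 and 684, and only progenitor replicate 2 had a signal above 50. Its difference of 3.51 was 4.48 without replicate 2 and 2.39, no longer passing, without replicates 1 and 4 (adjusted p = 0.0611). The differences of Nkx6-2 and Nfib were 2.91 and -1.32 without replicates 1 and 4, and without replicate 2 that of Nkx6-2 was 4.59. Zfp536, a zinc finger repressor, rose 6.71-fold with little spread in either group, and Smad7, an inhibitor of TGF-beta and BMP signalling, rose 5.62-fold and was brightest on oligodendrocyte replicate 3.

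Myrf, the membrane-bound factor that switches on myelin genes, was at 7374, 6614, 7517 and 6215 against 752, 6848, 1135 and 970.5. Progenitor replicate 2 lay inside the oligodendrocyte range and the other 3 progenitor arrays lay far below it. The difference of 2.16 ± 0.60 (adjusted p = 0.0171) was 2.88 without replicate 2 (adjusted p = 1.32e-05) and 1.31 without replicates 1 and 4 (adjusted p = 0.127). Nkx2-2, a homeobox factor that peaks early in differentiation, was at 3590.1, 3520.0, 1873 and 3148 against 2873, 12128, 3237 and 2735, did not pass (-0.51 ± 0.47), and had its highest signal of the 8 arrays on replicate 2. Nfe2l3 also had its highest progenitor signal on replicate 2, at 21.2, 1006, 117 and 35.1 in progenitors against 662, 867, 1757 and 799.8. It passed with overlapping groups (adjusted p = 0.0284), and with any 1 of the other 7 arrays left out its adjusted p was between 0.0504 and 0.0749. It was 0.184 without replicates 1 and 4. The factors of the whole lineage stayed bright. Olig2, with 1 allele replaced by Cre in the oligodendrocyte group, was at 7283, 6097, 7081 and 6848 against 8747, 12307, 17351 and 7410.1, which did not overlap and narrowly did not pass (-0.67 ± 0.25, adjusted p = 0.0501), but passed at 8 of 20 alternative settings (adjusted p = 0.00394 to 0.119 over all 20). Sox10 was at 7608 to 9138 against 9136 to 13107 with overlap, and its adjusted p of 0.0495 passed narrowly and was lost at 15 of 20 alternative settings. Whether the Olig2 value reflects the allele or the state of the cells cannot be told apart.

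Chromatin regulators fell in 10 of 18 tested members and rose in 2, with a median of -0.69. They included Polycomb genes, which silence chromatin: the methyltransferase Ezh2 went from 7104, 2942, 5293 and 7065 to 1063, 1294, 1720.4 and 1239, and its partners Suz12 and Eed fell 4.32-fold and 2.06-fold. Hmgb2, a chromatin protein of dividing cells, fell 8.13-fold, and Chd7, a remodelling enzyme, fell 2.83-fold. Hdac11, a deacetylase of differentiated oligodendrocytes, rose 4.1-fold, and the DNA methyltransferase Dnmt3a rose by 0.90 ± 0.29 with overlapping groups. Dnmt3a and Eed did not pass without replicates 1 and 4 (adjusted p = 0.155 and 0.0576), nor did Dnmt3a without oligodendrocyte replicate 1 or 2 or progenitor replicate 1, 3 or 4 (adjusted p = 0.0583 to 0.0834). Among progenitors Ezh2, Suz12, Eed and Hmgb2 were all lowest on replicate 2, as the mitosis list was, and the part of cell division in their fall was not tested.

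Only the oligodendrocyte medium had T3 added. Klf9, a zinc finger factor induced directly by the hormone receptor, was at 11315, 12848, 11086 and 13718 against 533, 345, 1224 and 693. All 4 progenitor arrays, replicate 2 included, were low, and the rise was 19.4-fold (log2 4.28 ± 0.34, adjusted p = 5.78e-05). Thrsp, a lipogenic response gene, rose at least 3.27-fold, and the corepressor Hr, from 145, 253, 499 and 193 to 909, 1163, 864 and 1049, rose 4.06-fold. The receptor Thra rose 2.61-fold and its weakest separation was at progenitor replicate 2, with 4641 against 4890 on oligodendrocyte replicate 2. The coactivators Med1, Ncoa1 and Ncoa2 fell, with differences of -1.32 ± 0.40, -1.24 ± 0.20 and -0.86 ± 0.22. Thra did not pass without oligodendrocyte replicate 1 (adjusted p = 0.0609) or progenitor replicates 1 and 4 (0.0856), and Med1 did not without oligodendrocyte replicate 1 or 2 or progenitor replicate 3 (adjusted p = 0.0585 to 0.07). In all, 4 of 9 tested members of the thyroid hormone list rose and 3 fell, with 11 of its 20 genes untested. Replicate 2, which resembled oligodendrocytes in Myrf, Enpp6 and Mbp, did not resemble them in Klf9, where it was the lowest array, or in Hr, where it lay among the other progenitor arrays.

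Feedback genes of the ERK kinase pathway, which PDGF activates, fell in 5 of 9 tested members, with none rising and a median of -0.96. Spry4, a feedback inhibitor of receptor kinases, was at 109, 106, 124 and 149 against 1532, 214, 1073 and 1647, and replicate 2 was close to the oligodendrocytes although no arrays overlapped. Spry1, the Ets factor Etv5, Spred2 and Spred1 fell, with differences of -1.93 ± 0.49, -1.82 ± 0.51, -1.51 ± 0.43 and -0.96 ± 0.26, all with replicate 2 as the lowest progenitor array. A dimmer Spred1 probe set rose (0.57 ± 0.20, adjusted p = 0.0413). Without replicate 2, 7 of 9 members fell, and the difference of Spry4 was -3.53. Without replicates 1 and 4 only 1 fell, with Spry4 at -1.99, Spry1 at -1.13, Etv5 at -1.20 and Spred2 at -0.87. Etv5 and Spred2 were also lost without progenitor replicate 1, and Spred1 and Spred2 without oligodendrocyte replicate 1 (adjusted p = 0.0501 to 0.0581). Immediate early genes split, with 2 rises and 2 falls among 10 tested, beside 19.8% and 26.2% of all genes. Arc, a synaptic early gene, rose at least 6.13-fold, and Junb, a subunit of AP-1, passed as a rise with overlapping groups (1.19 ± 0.38). Myc fell 1.79-fold, with 1369.7, 1249.6, 1543 and 826 against 2168, 2074, 2259.5 and 2229, and Ier2 fell with overlapping groups (-1.47 ± 0.48, adjusted p = 0.0338). Junb was lost without oligodendrocyte replicate 1, 2 or 4 or progenitor replicate 4 (adjusted p = 0.063 to 0.0866). Ier2 was lost without replicates 1 and 4 (-0.65, adjusted p = 0.207) and without oligodendrocyte replicate 2, 3 or 4 or progenitor replicate 1, 3 or 4 (adjusted p = 0.0533 to 0.0841). Egr1, the textbook early gene of growth factor signalling, was at 3169.8, 1834, 3288 and 2234 against 10128, 398, 5175 and 7272 and did not pass (-0.46 ± 0.88). Without replicate 2, which had the lowest signal of all arrays, its difference was -1.50 (adjusted p = 0.00207).

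Of 17 tested growth factor receptors and adaptors 8 rose and 3 fell, with a median of 0.73. The FGF receptors Fgfr2 and Fgfr3 rose 9.42-fold and 5.7-fold, with Fgfr2 at 2133, 2022, 1386 and 2005 against 161, 283, 203 and 165 and both lowest, within oligodendrocytes, on replicate 3. Pik3r3, a regulatory subunit of PI3 kinase, and the neuregulin receptor Erbb3 rose 5.33-fold and 5.08-fold. The insulin receptor substrate Irs1 rose 2.56-fold, while the receptors above it, Igf1r and Insr, fell 3.02-fold and 1.7-fold.

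In the Notch, BMP and Wnt list 8 of 25 tested members rose and 4 fell, with a median of 0.26. Of the Id genes, targets of BMP that hold back differentiation, 3 rose. Id4 was at 4424, 5577, 1321 and 3833 against 158, 128, 93.5 and 94.6, Id1 at 2712, 2579.6, 1078 and 1962 against 61.6, 429, 77.4 and 75.5 and Id3 at 5197, 6039, 3442 and 6229 against 724, 2568, 464 and 352. In all 3 the oligodendrocyte array with the lowest signal was replicate 3, and without progenitor replicate 2 the differences of Id1 and Id3 were 4.79 and 3.37, while that of Id1 was 3.43 without replicates 1 and 4. Id2 overlapped between the groups and did not pass (0.26 ± 0.30). The BMP receptor Bmpr1b and the secreted protein Dkk3 rose at least 5.22-fold and 6.06-fold. The ligands Bmp7 and Dll1 and the receptor Notch1 fell 9.21-fold, 3.86-fold and 2.51-fold. The log2 difference of Bmp7, -3.20, was -3.83 without replicate 2 and -2.34 without replicates 1 and 4. Of 17 tested astrocyte markers, given further on, 15 rose between the same groups and 13 were lowest, among oligodendrocytes, on replicate 3; their part in the rise of the Id genes was not tested.

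Lipid genes divided by pathway. Of 22 tested genes of sphingolipid and galactolipid metabolism 13 rose and 1 fell, with a median of 0.92. Ugt8a, which makes the galactolipid galactosylceramide, was at 20402, 18768, 21014 and 18386 against 3477, 16722, 7726 and 3357; replicate 2 nearly reached the oligodendrocytes and the difference was 1.65 ± 0.45 (adjusted p = 0.0164), or 0.79 without replicates 1 and 4, where it did not pass (adjusted p = 0.0597). Fa2h, which hydroxylates the fatty acids of these lipids, and Sgms2, a sphingomyelin synthase, differed by 3.22 ± 0.76 and 3.64 ± 0.83, by 4.10 and 4.56 without replicate 2, and by 1.91 and 2.27 without replicates 1 and 4. Kdsr and Sptlc1, which act early in sphingolipid synthesis, rose 3.31-fold and 3.16-fold, and Psap, the precursor of the saposins that help degrade the lipids, rose 4.12-fold, from 2651, 5178, 4102 and 1816 to 13625, 12940.1, 13266 and 12655. The 1 fall, Galc, which degrades galactosylceramide, rests on a probe set with 681, 45.4, 645 and 54.5 in oligodendrocytes, and another Galc probe set rose, as described with the probe sets that disagree.

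Sterol synthesis went the other way, with 12 falls and 3 rises among 24 tested genes and a median of -0.56. Fdft1, squalene synthase, was at 4507, 4073, 4766 and 4698 against 8637, 10812, 8134 and 13544, and Idi1, an isomerase of the same chain, at 5124, 3678, 4867 and 3623 against 8493, 8971, 7756 and 11415. No array of either group overlapped for Fdft1 or Idi1, which fell 2.24-fold and 2.12-fold. Tm7sf2, a sterol reductase, fell 3.23-fold, the sterol carrier Stard4 2.18-fold and the sterol sensor Insig1 2.15-fold. Against this direction the regulator Srebf1 and the enzyme Hsd17b7 rose 2.38-fold and 2.56-fold, and Ebp passed with overlap (0.78 ± 0.26), but not without oligodendrocyte replicate 1, 2 or 3 or progenitor replicate 2, 3 or 4 (adjusted p = 0.0528 to 0.103). The count of 12 falls was unchanged without progenitor replicate 2 and without replicates 1 and 4.

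Fatty acid synthesis was mixed, with 7 rises and 4 falls among 19 genes and a median of 0.24. Acly, which supplies acetyl-CoA, fell 1.95-fold and Fasn, fatty acid synthase, fell 1.39-fold, at 7206, 6057, 5218 and 4274 against 7426, 8232, 7743 and 7683 and with an adjusted p of 0.0476, which was 0.05 or more at 13 of 20 alternative settings, among them the omission of any 1 array but oligodendrocyte replicate 1 (adjusted p = 0.0706 to 0.125). Among enzymes that lengthen or desaturate the chains, Elovl7 rose by 2.35 ± 0.63, Hacd2 by 1.55 ± 0.15 and Fads2 by 1.46 ± 0.25. The Elovl7 value was 3.03 without replicate 2 and 1.34, not passing, without replicates 1 and 4 (adjusted p = 0.0847). Me1, malic enzyme, which supplies NADPH, rose 3.24-fold. Acsbg1, an acyl-CoA synthetase also listed as an astrocyte marker, passed with overlapping groups (2.98 ± 0.78), since progenitor replicate 3 reached 1938. It was 3.77 without that array and 2.30 without replicate 2, and did not pass without replicates 1 and 4 (adjusted p = 0.0701).

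Cytoskeletal genes moved in both directions, and the counts for actin, septin and filament proteins were near the shares of all genes (19.8% and 26.2%). Of 32 tested tubulins and microtubule proteins 13 rose and 7 fell (median 0.33), and of 32 actin, septin and filament proteins 7 rose and 10 fell (median -0.09), or 11 and 7 after quantile normalization. Tppp, which bundles microtubules in myelinating cells, was at 7607, 7337, 9566 and 5042 against 141, 180.2, 294 and 62, a 49-fold rise (log2 5.62, or 4.97 without replicates 1 and 4), and its relative Tppp3 rose at least 10.8-fold. Map7, Stmn4 and Tuba4a rose 16.4-fold, 12.3-fold and 11.2-fold, with Map7 and Stmn4 brightest on oligodendrocyte replicate 3. Within the stathmins, which destabilise microtubules, Stmn1 and Stmn3 fell 2.68-fold and 3.06-fold while Stmn4 rose. Map2, an early microtubule protein of progenitors and neurons, and Tubb5, a tubulin of dividing cells, fell 3.32-fold and 1.91-fold. The actin-severing protein Gsn rose 2.37-fold, and Ezr, which ties actin to the membrane and is strong in astrocyte processes, rose at least 15.8-fold. Nes, the filament of neural progenitors, passed with overlap (-1.67 ± 0.45), because replicate 2 had 328 against 855 to 1262 on the other progenitor arrays. Without replicates 1 and 4 it was -1.06 and did not pass (adjusted p = 0.113). Vim did not pass (0.16 ± 0.47) and had 5788 on replicate 2, against 15475 to 33891 on the other 7 arrays.

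Among 30 tested guidance and adhesion genes 13 rose and 4 fell, with a median of 0.77. The netrin receptor Unc5b was at 1579.5, 1312, 1883 and 1033 against 111, 116, 79.3 and 94.1, 14.3-fold higher, while the netrin receptor Dcc fell, from 1149, 5059.6, 1332 and 1186 to 719.9, 492, 813 and 568, with replicate 2 far above the rest. Dcc did not pass without oligodendrocyte replicate 1, 2 or 4 (adjusted p = 0.0546 to 0.0738). The ephrins moved apart: Efnb3, which repels axons, rose 11.3-fold, and Efnb2 fell by at least 3.15-fold. The receptor Epha4 rose by 3.40 ± 0.68, by 4.11 without replicate 2 and by 2.17 without replicates 1 and 4. Cntn1, a surface protein of the axon and glia contact, fell 2.17-fold, and Rtn4, the myelin inhibitor Nogo, was at 15901 to 18748 against 10976 to 17090.4 and did not pass (0.29 ± 0.15).

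Of 26 tested matrix and protease genes 12 rose and 3 fell, with a median of 0.71. The largest rises were Sparcl1, from 252, 126, 351 and 242 to 12967, 13992, 10292 and 16183, Sparc and Matn4, with 57.9-fold, 49.3-fold and 55.3-fold. Without progenitor replicates 1 and 4 the log2 difference of Sparc went from 5.62 to 4.40 and that of Matn4 from 5.79 to 4.98, and without replicate 4 alone they were 4.88 and 5.16. Both SPARC proteins are secreted by astrocytes among other cells, and 15 of 17 tested astrocyte markers rose as well; their part was not tested. The falls included versican, Vcan (2.3-fold), a proteoglycan of progenitor matrix, and the collagen Col11a1 (2.86-fold).

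Channels and transmitter receptors showed both directions, with 8 rises and 9 falls among 29 tested of 53 listed and a median of -0.23. The shares of all genes were 19.8% and 26.2%. The AMPA receptor subunit Gria1 rose at least 5.51-fold while Gria3 fell 3.21-fold. The GABA receptor subunit Gabrb1 and the channel Ano4 rose at least 7.92-fold and 6.56-fold. The potassium channel Kcna1 was at 14137, 13039, 9213 and 10208 against 453, 269.6, 2664 and 284, and Kcnd2, a channel of the A-type current, fell 6.18-fold. The purine receptor P2rx7 fell 5.85-fold (log2 -2.55, or -1.93 without replicates 1 and 4). Gria1 and Gabrb1 were both lowest, among oligodendrocytes, on replicate 3 (256 and 407), as 13 of 17 tested astrocyte markers were, whereas Ano4 was highest there (1642).

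Of 20 tested solute carriers 9 rose and 3 fell, with a median of 0.62. Slc16a1, the lactate transporter MCT1 through which oligodendrocytes feed axons, was at 5798, 7688, 6109.9 and 6207 against 1561, 641, 1455 and 1603, a 5.19-fold rise. The choline transporter Slc44a1 rose 4.66-fold, and the sugar transporter Slc45a3 rose at least 4.14-fold. Slc1a2 and Slc1a3, glutamate transporters typical of astrocytes, rose 20.7-fold and 16.4-fold, and the log2 difference of Slc1a3, 4.03, was 3.44 without replicate 2. The amino acid transporters Slc7a5 and Slc38a2 fell, with differences of -1.64 ± 0.53 and -1.11 ± 0.17, and Slc7a5 had only 341 on progenitor replicate 2 against 1612 to 2084 on the others. The difference of Slc7a5 was -2.26 without that array and -0.92 without replicates 1 and 4 (adjusted p = 0.219), and its adjusted p was 0.0552 to 0.0847 with any 1 of the other 7 arrays left out.

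The translation machinery was lower in oligodendrocytes. Of 25 tested cytosolic ribosomal protein genes 18 fell and none rose, and all 25 differences were negative, with a median of -0.78. Rpsa was at 11659.7, 11364, 16016 and 11304 against 23295, 23133, 33438 and 30363 and Rps20 at 11491, 11392, 14119.5 and 11522 against 17820.4, 21497, 29790.3 and 24734, without overlap. Rps6 and Rpl14 fell 3.95-fold and 3.62-fold. After quantile normalization the median was -0.37 and 13 fell, so the size of this shift depended on the scaling. Genes of ribosome assembly fell in 16 of 30 members with none rising and a median of -0.71; Polr1c, a subunit of RNA polymerases I and III, and the nucleolar helicase Ddx21 fell 2.88-fold and 2.53-fold. Without replicates 1 and 4, 6 of these 30 fell, and without progenitor replicate 2, 21 fell.

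Energy metabolism genes moved in both directions. Respiratory chain and ATP synthase genes fell in 12 of 36 members and rose in 2, with a median of -0.22 that became 0.04 after quantile normalization. Cyc1, a subunit of complex III, fell 1.66-fold and Sdhc of complex II rose 2.26-fold. Sdhc did not pass without replicates 1 and 4 (0.52, adjusted p = 0.0807) or without oligodendrocyte replicate 1, 3 or 4 or progenitor replicate 1 (adjusted p = 0.0533 to 0.0748). Of 20 glycolysis and lactate genes 5 rose and 5 fell, near the shares of all genes (19.8% and 26.2%). The isoforms Hk2 and Ldha fell 2.87-fold and 1.72-fold, while Eno2, Pdk2, which restrains entry of pyruvate into mitochondria, and Aldoc, an astrocyte marker, rose 12.3-fold, 9.75-fold and 2.66-fold. The log2 difference of Pdk2, 3.29, was 3.99 without replicate 2 and 2.29 without replicates 1 and 4.

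Lysosomal genes rose in 19 of 27 tested members and none fell, with a median of 1.00 that stayed between 0.97 and 1.06 without replicate 2, without replicates 1 and 4 and after 2 other scalings. Ctsb, a cathepsin protease, was at 11813, 13270.2, 11149 and 11872 against 3299.6, 4608, 2984 and 2850.0. The proteases Ctso, Ctsz and Ctsa rose 5.18-fold, 4.43-fold and 4.2-fold, and the sialidase Neu1 rose 3.51-fold. The log2 differences of Ctsz and Neu1 went from 2.15 and 1.81 to 1.31 and 1.201 without replicates 1 and 4. Of 9 tested iron genes 3 rose: the ferroxidase Cp at least 6.55-fold, the heme oxygenase Hmox1 5.85-fold and the ferritin chain Fth1 1.91-fold, with 19629, 19110.2, 16084 and 16043 against 9919, 9929.8, 10210.2 and 7283. Antigen presentation genes rose in 7 of 9 members and 1 fell. H2-D1 and B2m, the chains of MHC class I, rose 2.44-fold and 2.67-fold, the peptide loader Tapbp rose 4.76-fold, and Ifitm3, an antiviral membrane protein, went from 56.7, 34.7, 105 and 69.8 to 4212, 2634, 1949.9 and 3491. The regulator Irf1 fell 1.84-fold, but not without replicates 1 and 4 (adjusted p = 0.117) or without oligodendrocyte replicate 1 or progenitor replicate 1 (adjusted p = 0.052 and 0.0554), and 12 of the 21 listed genes did not pass the signal filter or had no probe set. Ctsb, Cp and Ifitm3 are not particular to oligodendrocytes, and the part of astrocyte-type cells in these rises was not tested.

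In the unfolded protein response list 3 of 19 rose and 5 fell, beside 19.8% and 26.2% of all genes: Ddit3, the stress factor CHOP, rose 3.8-fold (log2 1.92, or 1.30 without replicates 1 and 4), the chaperone Hspa5 fell 1.63-fold and the amino acid enzyme Asns fell 2.75-fold. In the p53 and apoptosis list 5 of 19 rose and 3 fell, beside the same shares of all genes. Gadd45b rose at least 6.43-fold and Phlda3 4.76-fold, and Gadd45a went from 63.7, 876, 247 and 69.1 to 1065, 888, 1025 and 1033, with replicate 2 just under the lowest oligodendrocyte array. Its difference of 2.51 was 3.28 without replicate 2 and 1.10 without replicates 1 and 4 (adjusted p = 0.0901), and it did not pass without oligodendrocyte replicate 1 or progenitor replicate 1 or 4 either (adjusted p = 0.0522 to 0.0586). Apaf1, which starts caspase activation, fell 3.46-fold.

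Markers of astrocytes had the largest median of all lists, 4.37 (4.03 with weak genes at their bound). Of 17 tested members (of 19 listed) 15 rose, beside 19.8% of all genes, and none fell. On every oligodendrocyte array 17 members reached a signal of 200, against 10, 7, 10 and 10 on progenitor replicates 1 to 4. Members that passed the filter through the oligodendrocyte arrays alone had to be higher there, so the filter fixed part of this count and median. Gfap, the filament protein that defines astrocytes, was at 17212, 14658, 15220.2 and 15886 in the oligodendrocyte cultures and at 87.5, 61.8, 73.1 and 100.3 in the progenitors. The oligodendrocyte arrays were alike, the progenitor arrays were all near 100 or below, and the difference was 7.63 ± 0.19 (adjusted p = 1.72e-07). Aqp4, the water channel of astrocyte endfeet, was at 9402, 12605, 7156 and 10530.0 (at least 97.2-fold), Gja1, connexin 43, at 4159, 6999, 5867 and 7800.0 (at least 60.4-fold) and Aldh1l1, a folate enzyme used as a pan-astrocyte marker, at 2136, 3076, 2031 and 3163 (at least 25.5-fold). Apoe, a lipid carrier, went from 100.1, 8.7, 65.8 and 54.3 to 14464, 16601, 11192 and 15825. Glul, glutamine synthetase of astrocytes and oligodendrocytes, rose 3.1-fold, and Sox9 and Fabp7 did not pass (0.51 ± 0.60 and -0.14 ± 0.16). The summed signal of the list was 105069 to 141471 on oligodendrocyte arrays and 28521 to 39094 on progenitor arrays. Its mean log2 level was 12.32, 12.57, 11.97 and 12.60 on oligodendrocyte replicates 1 to 4, while that of the mature oligodendrocyte list was 11.21, 11.08, 11.82 and 10.75. Replicate 3 was thus lowest for the mean of the astrocyte list and highest for the mature oligodendrocyte list, and replicate 4 the reverse. In bulk samples more cells of a type and more RNA per cell cannot be told apart.

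The 15 genes with the largest fitted rises without overlap held genes of astrocytes and of oligodendrocytes, and their order is not given, since most were too weak in progenitors for more than a bound. Mlc1, a membrane protein of astrocyte endfeet, was at 5434, 6059.9, 3574 and 5622 against 1.6, 3.1, 3.1 and 2.5, at least 50.7-fold. With it stood Aqp4, Gja1, Apoe and Gfap, the sphingosine phosphate receptor S1pr3 (at least 68.1-fold), the phospholipase Pla2g7 (at least 19-fold), both enriched in astrocytes, and the retinal dehydrogenase Aldh1a1 (at least 16.1-fold). The oligodendrocyte genes Mal, Mobp, Cryab and the membrane protein gene Tmem125 were also among them. Tmem125 was at 4008, 2679, 5345 and 2395 against 4.2, 3.4, 15.5 and 7.7 and brightest on replicate 3, as Mal was, whereas Pla2g7 and S1pr3 were dimmest there.

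The largest falls were led by Cspg4, followed by Mki67 and by Lrr1, a cell cycle gene whose protein acts in replisome disassembly (log2 -4.24, -4.99 without replicate 2 and -3.24 without replicates 1 and 4). Others were Plppr1, a membrane protein of growing processes, from 2364, 5739, 2912 and 2573 to 125, 154, 204 and 224, Calcrl, the receptor for CGRP and adrenomedullin, from 1992, 1572, 1649 and 2944 to 103, 156, 79.7 and 162, and Neto1, an auxiliary subunit of glutamate receptors, which fell 14.9-fold. Itga8, an integrin chain, went from 6484, 279, 4705 and 4978 in progenitors to 78.1 to 250.0 in oligodendrocytes, so that 3 progenitor arrays were bright and replicate 2 was hardly above the oligodendrocytes. Its difference of -4.18 ± 0.92 was -5.25 without replicate 2 and -3.03 without replicates 1 and 4 (adjusted p = 0.0563). Fbn2, a microfibril protein, fell 14.3-fold (log2 -3.83, or -2.999 without replicates 1 and 4).

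Markers of other cell types were mostly weak. All 13 microglial genes were under 200 on every array, with summed signals of 338 to 558 and 355 to 492, and so were the 8 endothelial genes with a probe set (193 to 444 and 255 to 269). Of 11 smooth muscle, pericyte and fibroblast genes only Acta2 was tested, at 1096, 691, 298 and 756 against 244, 140.5, 129 and 407, and it passed with overlap (1.64 ± 0.47), but not without oligodendrocyte replicate 1, 2 or 4 or progenitor replicate 3 (adjusted p = 0.0504 to 0.0608). The sum of that list was 1028 to 2967 against 346 to 586. Its members at 200 or more numbered 3, 3, 1 and 3 on oligodendrocyte replicates 1 to 4 and 1, 0, 0 and 1 on progenitor replicates 1 to 4. Between 0 and 5 genes of the list rose at the 21 alternative settings. Of 15 neuronal markers 6 were tested, of which 3 fell and 1 rose. Elavl4, a neuronal RNA-binding protein, fell 3.11-fold, Gap43 1.81-fold and Map2 3.32-fold, Tubb3 passed as a rise with overlap (1.19 ± 0.34), and Dcx did not pass. Tubb3 was lost without replicates 1 and 4 (adjusted p = 0.107) and without oligodendrocyte replicate 1 or 2 (adjusted p = 0.0522 and 0.0541), and Dcx passed as a fall without replicates 1 and 4 (-3.09, adjusted p = 0.0213). Dcx was at 435, 628, 128 and 768 against 655, 6455, 1838 and 484, with its highest signal on progenitor replicate 2. Several of these genes are also made by progenitors, and Rbfox3, Snap25, Syt1 and other markers of mature neurons did not pass the filter. The Schwann cell and ependymal lists had no tested member. Schwann cell sums were 726 and 978 on progenitor replicates 1 and 4, where Egr2, a zinc finger factor that is also an early response gene, reached 688 and 908, against 39.9 to 194 on the other 6 arrays. Ependymal sums were 328 to 485 on oligodendrocyte arrays, with the cilia factor Foxj1 at 338, 291, 198 and 286, against 82.5 to 152 on progenitor arrays.

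**Figure D4:**
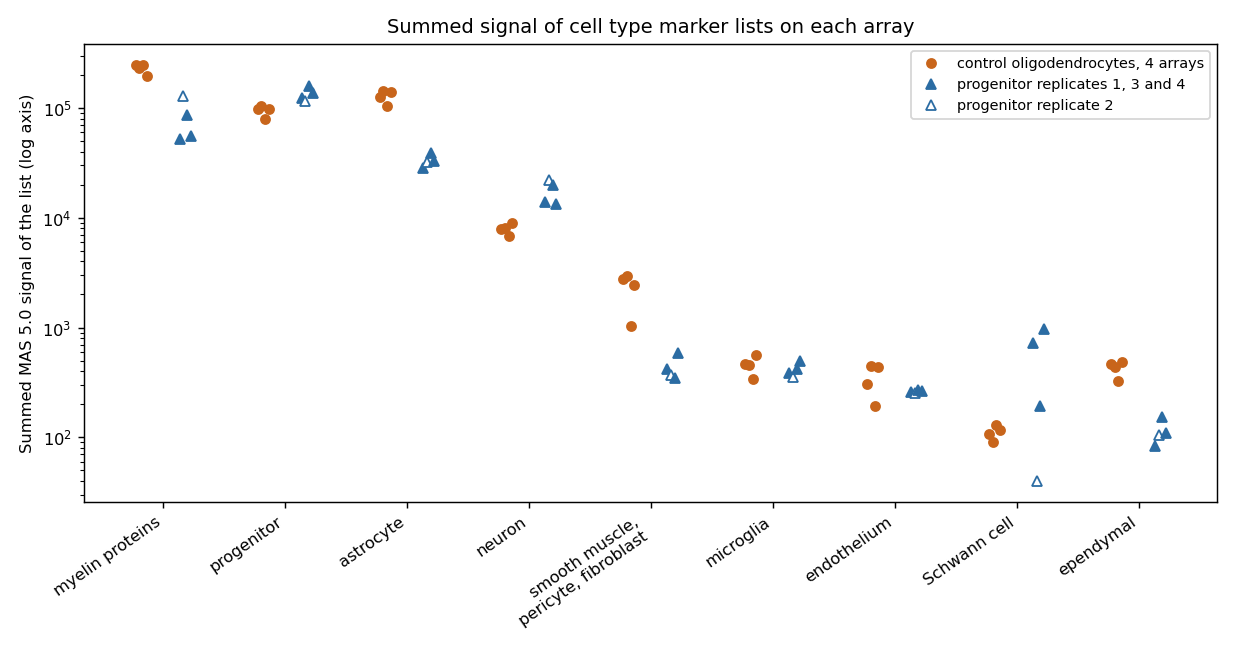
Summed MAS 5.0 signal (log axis) of the members of 9 marker lists on the 4 control oligodendrocyte arrays (circles) and the 4 progenitor arrays (triangles, replicate 2 open). The astrocyte sum is 105069 to 141471 on oligodendrocyte arrays and 28521 to 39094 on progenitor arrays, and the microglial and endothelial sums are at most 558.

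Different probe sets of a gene did not always move alike. Of 3956 genes with 2 or more tested probe sets, 95 (2.40%) had probe sets called in opposite directions. A Galc probe set was at 306, 301, 326 and 307 against 26.4, 54.4, 48.6 and 21.7 and rose at least 3.1-fold, while the brighter one, which stands for the gene, was at 681, 45.4, 645 and 54.5 against 1066, 877, 915 and 1171 and fell (-2.46 ± 0.88). The oligodendrocyte replicates split into pairs on the second, and without oligodendrocyte replicate 2 its difference was -1.80 (adjusted p = 0.111). The fall was -3.10 and -3.07 without oligodendrocyte replicates 1 and 3, and did not pass without oligodendrocyte replicate 4, progenitor replicate 1, 3 or 4 (adjusted p = 0.0777 to 0.116) or progenitor replicates 1 and 4 (0.172). Ncam1, an adhesion molecule with several splice forms, had a probe set at 2984, 3060.3, 2845 and 3104 against 379.5, 2506, 1145 and 410.2 and another at 1419, 1247, 872 and 1026 against 3771, 3648, 2086 and 4537. The first rose by 1.87 ± 0.54 and the second fell (-1.59 ± 0.27), without overlap in either. Ap1s2, a clathrin adaptor subunit, showed 2.79 ± 0.22 and -1.61 ± 0.36, and Thrap3, a splicing and transcription protein, 1.68 ± 0.41 and -2.46 ± 0.28. Their brightest probe sets, which stand for the genes, were others and differed by -1.18 and -0.75. Neither of those passed without progenitor replicates 1 and 4 (adjusted p = 0.0584 and 0.0511). Ezr, which rose strongly on its brightest probe set, had a dimmer one that fell, at 56.7, 199, 122 and 159.6 against 479.5, 382, 345 and 878. On the rising probe sets of Galc, Ncam1, Ap1s2 and Thrap3 the lowest progenitor arrays were replicates 1 and 4, which had low 5′ to 3′ ratios. On that of Ezr they were not. The part of these ratios in the opposed calls was not tested, and which transcripts the probe sets read was not examined here.

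**Figure D5:**
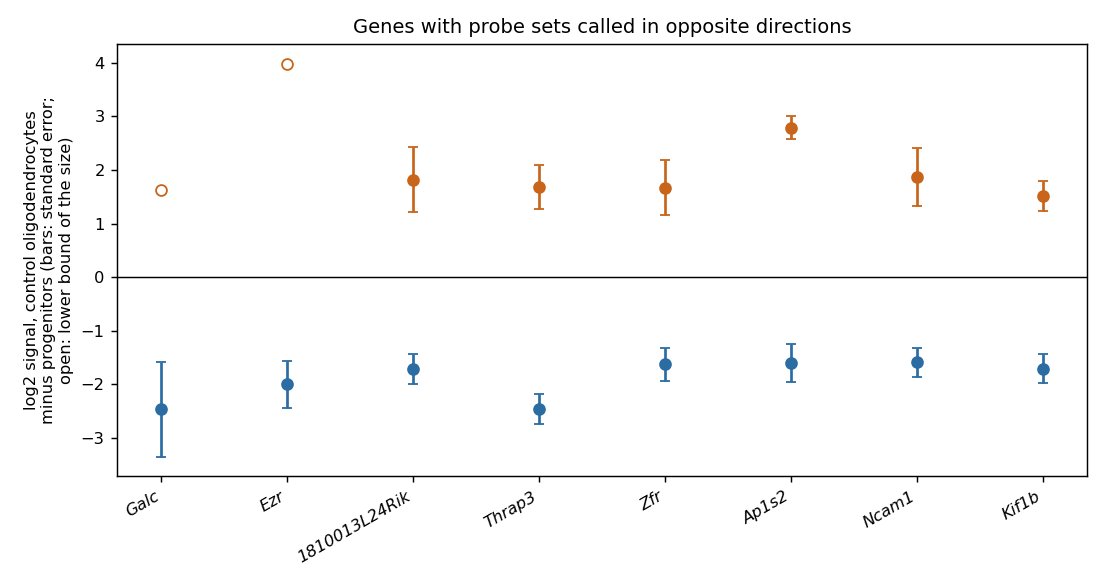
Difference in log2 signal between control oligodendrocytes and progenitors, with standard errors (n = 4 and 4), for probe sets called higher (orange) and lower (blue) of the 8 genes whose opposite calls were largest. Open points mark probe sets with every signal of the lower group under 100 and stand at the bound against 100, with no error; the falling Galc probe set is at -2.46.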

How the data were processed

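Signals were intensities deposited by the authors as one table of 45101 probe sets. Per the labels' protocols, RNA from RNeasy micro kits was amplified by two-cycle labelling from 1 µg and scanned on 3′ arrays, and GCOS 1.3 with the MAS 5.0 algorithm scaled each array to a target of 500. The tools are also named in the submitters' processing notes. Summaries of this kind compress bright signals and make weak ones unreliable.

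Log2 signals of the 8 arrays were fitted with limma 3.58.1 (lmFit, eBayes with a mean-variance trend) in R 4.3.3. Only probe sets at 200 or more on at least 4 arrays entered. The Benjamini-Hochberg adjustment covered all 16842 probe sets tested, and the threshold was 0.05. The fit was tested on simulated data. GEO's platform annotation gave gene symbols: 34958 probe sets had 1 symbol, 932 several and 9211 none. Named genes were the 15 largest rises and falls without overlap, a fixed panel, up to 5 members per list and direction, the 2 brightest members not passing, the brightest markers of other cells, and genes with opposed probe sets. Members and lists were chosen with earlier results of these data known. Alternatives were other offsets, filters, scalings, variance models, array weights, a replicate block and omitted arrays. The main fit did not pair the samples by replicate number, since the labels do not say that the numbers pair them. The knockout arrays entered only the alternative fit of all 11 arrays.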

Additional observations from a re-analysis of the deposited data

Results flagged for a closer look

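Among the 237 genes examined array by array, 437 groups of 4 arrays could be checked for an array whose gap to the nearest of the others took up more than 0.829 of the range (Dixon's criterion, on log2 signals with values under 100 set to 100). There were 43 such arrays, of which 23 were progenitor replicate 2 and 10 were control oligodendrocyte replicate 3. Chance gives about 1 in 20 groups, but not where all the other arrays of a group are set to 100. The share is then 1 whatever the spread. This was so for Mobp on progenitor replicate 3 and for St18, Id1, Sgms2 and Pdk2 on progenitor replicate 2. The count of 43 includes them and cannot be set against that rate as it stands.

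Progenitor replicate 2 lay below its group in 14 genes. They were the progenitor and membrane genes Cspg4 (signal 1131), Neto1 (975.8), Itga8 (279.4) and Prom1 (35.5), the division genes Anln (748.6), Mcm5 (1485), Bub1 (873.5), Cdk1 (1534) and Ccnd1 (1353), the regulators Etv5 (735.9) and Eed (1622), the carriers Slc16a1 (641) and Slc7a5 (341.3), and Asns (2040). It lay above its group in 9 genes. These were the factors St18 (490.9), Nfe2l3 (1006), Nkx2-2 (12130) and Id1 (428.9), the guidance receptor Dcc (5060), and Pik3r3 (2241), Sgms2 (594), Slc44a1 (5975) and Pdk2 (459.9). Prom1, Slc16a1 and Dcc moved away from the oligodendrocyte level on this array, and Cspg4, Cdk1, St18 and Sgms2 towards it.

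Control oligodendrocyte replicate 3 was low for Matn4 (1191), Fgfr2 (1386), Irs1 (3260), Map2 (1345), Ezr (1106) and Epha4 (865.3), and high for E2f7 (237.5), Elovl7 (6982), Rpsa (16020) and Rps20 (14120). Single genes stood apart on other arrays. Oligodendrocyte replicate 1 was low for Cryab (1160), replicate 2 was high for Rps6 (1574), and replicate 4 was high for C1ql1 (1478) and Espl1 (139.2). Progenitor replicate 1 was high for Notch1 (5221), replicate 3 was high for Mobp (751.3) and Slc1a2 (731.1), and replicate 4 was low for B2m (883.9), Fth1 (7283) and Aldoc (3646).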

How the results depend on the processing

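The count of 7752 probe sets past the threshold stayed within 1.5 times of that value at all 20 alternative settings run, from 5585 without control oligodendrocyte replicate 1 to 11021 with array weights, and was 9309 without progenitor replicate 2. Of 219 called genes among the 237 examined, 177 kept call and direction at every setting, 42 lost the call at 1 or more (35 of them without progenitor replicates 1 and 4 together) and 0 reversed. All genes that reversed were among the 18 not called. They were Cnp without progenitor replicates 1 and 4 (-0.076), Bcas1 and Fabp7 after quantile normalization (0.28 and 0.33), Nkx2-2 with array weights (0.054), and Egr1 without progenitor replicates 1 and 4 (0.83) and from -1.50 to 0.053 with 1 array left out. Cdkn1a reversed with array weights (-0.85) and ranged from -0.91 to 0.55 with 1 array left out, Vim from -0.38 to 0.47 and Sox9 from -0.095 to 0.97. The cause was not tested.

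With the replicate number as a block 7178 probe sets passed. Deviations of same-numbered arrays correlated at -0.14, 0.18, 0.07 and 0.09, and oligodendrocyte replicates 2 and 4 correlated best with their own number. The labels state no pairing, and so few correlations cannot decide whether the numbers pair the samples.

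The number of arrays limits the precision, and signals under 100 give bounds only. A group of 449 probe sets reached 200 on 3 progenitor arrays and on no oligodendrocyte array and was therefore not tested, 333 of them because progenitor replicate 2 was under 200. The other way round there were 330.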
